A study of Mus musculus with 4 samples.

Results

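Transcript levels of 40 genes of DNA double-strand break repair and mismatch repair were read from gene-level RNA-seq of activated mouse CD4+ T cells with and without Setd2. The genes were set by a list of symbols, and all 40 were found among the 18560 genes of the table. They fall into 5 groups by role, with 6 genes of mismatch repair, 7 of break sensing and checkpoint signalling, 14 of homologous recombination, 10 of end joining and 3 of the Fanconi anaemia pathway. All 40 passed the filter on low counts and were tested.

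The cells were naive CD4+ T cells from the spleen of C57BL/6 mice, activated with antibodies against CD3 and CD28 and not steered toward an effector type (Th0 cells). One genotype was labelled Setd2-CD4 cre, with 2 libraries numbered 9 and 12, and is called Setd2 knockout here. The other was labelled wild type, with 2 libraries numbered 1 and 6. Both genotypes had the same stimulation, for which the titles carry the number 48, the design text says 2 days and the treatment field says 3 days. A Cre driven by Cd4 acts in developing T cells before the CD4 and CD8 lineages part. The sources used here give no age, sex, floxed allele or animal for a library. The p-values therefore rest on the spread among 4 samples, and that spread may be only technical.

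Cells mend broken DNA by several routes. Mismatch repair removes bases that polymerases put in wrongly: MutS dimers find the mismatch, MutL dimers cut beside it and an exonuclease removes the strand. A double-strand break is sensed by the MRE11 complex and the kinases ATM and ATR, and is then either trimmed and copied from the sister chromatid (homologous recombination, in S and G2 phase) or rejoined directly (end joining, in any phase). Activated T cells divide fast and depend on these routes, and lymphocytes use end joining to assemble their antigen receptor genes. SETD2 adds the last methyl group of the H3K36me3 mark along transcribed genes. In human cells a PWWP domain of MSH6 binds this mark, as does one of PSIP1 (also called LEDGF), which helps recruit the resection factor encoded by Rbbp8.

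Total counts were 17284613 and 20418766 in the knockout libraries 9 and 12, and 19663302 and 18748194 in the wild type libraries 1 and 6. Setd2 itself (gene 235626, GRCm38.p6 chromosome 9, 110532500 to 110618633) was measured at 127.2 and 112.9 CPM in knockout libraries, against 157.2 and 174.5 CPM in wild type libraries (log2 fold change -0.47, SE 0.21, edgeR adjusted p 0.421). At an effective length of 8507 bases its log2 fold change was -0.02 (SE 0.19) with a length trend removed from each library, and the groups then overlapped. CPM scales counts to library size with TMM factors, and log2 fold changes are knockout over wild type. A gene-level count adds reads from deleted and kept exons, so these values do not check the genotype labels. Markers were summed in CPM of library size alone. All 5 T cell markers were present in every library, and they summed to 1197 and 1259 CPM in knockout against 1545 and 1911 CPM in wild type libraries. The 4 B cell markers summed to 158.5 and 286.8 CPM in knockout against 210.3 and 146.6 CPM in wild type libraries. The 2 CD8 markers summed to 431 and 307 CPM in knockout against 260 and 348 CPM in wild type libraries. The 5 myeloid markers summed to 4.32 and 5.0 CPM in knockout against 6.82 and 8.94 CPM in wild type libraries. The 3 erythroid markers summed to 2.14 and 2.68 CPM in knockout against 5.96 and 17.3 CPM in wild type libraries, and the 2 of them tested had a median log2 fold change of -2.15, with 1 called lower by DESeq2 and 0 by edgeR. The part of these cell types in the results was not tested. The libraries did not group by genotype in full: of the 6 pairs of libraries, knockout 9 and wild type 1 were the closest, with a chi-square per degree of freedom of 30.4 over genes, against 52.5 between the knockout libraries and 45.4 between the wild type libraries.

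Many repair genes are known targets of E2F factors, which switch on genes for S phase, and promoter letters were therefore searched for E2F-type words. RefSeq promoter windows of GRCm38.p6 were at hand for 30 of the 40 genes. In the 250 bases before the 1 start that this table gives for a gene, the words TTTCCCGC, TTTCGCGC, TTTGCCGC and TTTGGCGC were searched on both strands, where the second and the fourth can overlap when they lie on opposite strands. At least 1 word was found in 5 of the 30 genes (16.7%), against 401 of 10244 tested genes with a window (3.91%). The 5 are shown for the word each holds, with 30 bases in the direction of the gene, 5′ to 3′, and the word or its reverse complement in capitals.
Bard1, chr1:71103163-71103192, minus strand: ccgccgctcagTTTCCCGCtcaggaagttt
Brca2, chr5:150522442-150522471, plus strand: tttaggccacaGCGGGAAAcagacacacac
Chek2, chr5:110839820-110839849, plus strand: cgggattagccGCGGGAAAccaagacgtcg
Msh3, chr13:92355185-92355214, minus strand: gccgtcaagTTTGGCGCGAAAtcgcagccc
Xrcc6, chr15:82016312-82016341, plus strand: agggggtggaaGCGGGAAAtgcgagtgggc
Msh3 holds 2 overlapping words, TTTGGCGC and the reverse complement of TTTCGCGC. The stretch of Xrcc6 overlaps an annotated exon of Xrcc6 and the gene Desi1. Those of Bard1, Chek2 and Brca2 overlap no GENCODE gene. The start in the promoter table lies downstream of the outermost gene coordinate for Chek2, Brca2 and Xrcc6, so these 3 stretches fall inside the gene coordinates given here. Log2 fold changes of the 5 genes had both signs, at -0.21 (Bard1), -0.65 (Brca2), -0.47 (Chek2), -0.32 (Msh3) and 0.40 (Xrcc6).

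No repair gene passed the test between the genotypes. At an adjusted p under 0.05, edgeR's quasi-likelihood test called 0 of the 40 genes higher and 0 lower in knockout cells, where it called 0.0078% of all 12816 genes tested higher and 0% lower. limma-voom called 0 of the 40, as did DESeq2, which called 0.687% of all genes higher and 0.757% lower. At an unadjusted edgeR p under 0.05, 4 repair genes were lower (Mlh3, Atm, Prkdc and Fanci) and 0 higher, against 5.73% and 6.23% of all genes. The size of these 4 differences depended on the libraries used. Leaving out 1 library gave log2 fold changes from -0.75 to -0.43 for Mlh3 and -1.21 to -0.37 for Atm. For Prkdc they ran from -1.03 to -0.44 and for Fanci from -0.67 to -0.45. The smallest adjusted p among the 40 was 0.413 in edgeR, and in DESeq2 it was 0.239, for Prkdc.

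Most repair genes stood slightly lower in the knockout libraries. Of the 40, 31 had a negative log2 fold change, 77.5% against 50.2% of all genes tested, and the median was -0.26 against 0.00 over all genes. The knockout pair lay wholly under the wild type pair for 20 of the 40 genes, against 24.3% of all genes, and wholly over it for 5, against 25.4%. The differences were small, with 35 of the 40 under 0.5 in size on the log2 scale, against 8700 of all 12816 genes tested. The median was -0.13 without knockout replicate 12 and -0.34 without knockout replicate 9. Knockout library 12 was the lowest of the 4 libraries for 23 of the 40 genes, against 4412 of all 12816 genes tested. Knockout library 9 was the lowest for 4 of the 40, against 2129 of all genes. Summed over the 40 genes, the libraries held 2196 and 1892 CPM in knockout against 2436 and 2339 CPM in wild type cells. On the same scale, 16 markers of dividing cells summed to 6442 and 6225 CPM in knockout and 6716 and 6085 CPM in wild type libraries, lowest in wild type 6, and 12 of the 16 had a positive log2 fold change (median 0.15). Knockout library 12 was the lowest for 2 of these 16 markers. The part of dividing cells in the repair gene values was not tested. In RNA from whole cultures, fewer cells of a type and less RNA per cell cannot be told apart.

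**Figure D1:**
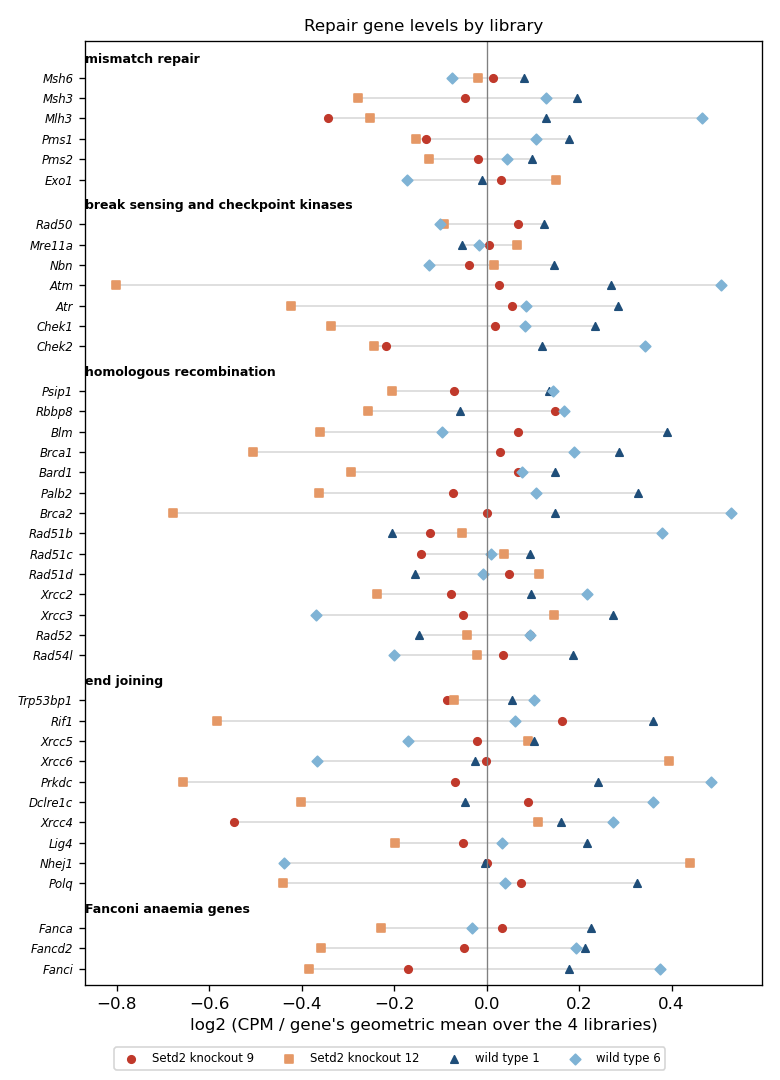
Level of each of the 40 repair genes in each library, as log2 CPM relative to the gene's geometric mean over the 4 libraries, with genes grouped by role (circles and squares, Setd2 knockout; triangles and diamonds, wild type). Knockout library 12 (squares) is the leftmost point for 23 of the 40 genes, and knockout library 9 (circles) for 4. Over all 12816 genes tested they were the lowest library for 4412 and 2129.

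The 40 repair genes were longer at the median than all genes, and fold changes ran with length in these libraries. The effective length implied by counts and FPKM (fragments scaled to transcript length and library size) had a median of 3864 bases over the 40 genes and 2815 bases over all genes. Over all genes the median log2 fold change was 0.38 for genes under 1 kb, 0.22 from 1 to 2 kb, 0.00 from 2 to 4 kb, -0.24 from 4 to 8 kb and -0.48 over 8 kb. The 5 repair genes over 8 kb (Atm, Brca2, Prkdc, Rif1 and Polq) were all negative with a median of -0.65, and 84.7% of all genes of that length were negative too. The 13 repair genes of 4 to 8 kb had a median of -0.25, close to the -0.24 of all genes of that length. The 18 repair genes of 2 to 4 kb had a median of -0.12 with 12 negative, where all genes of that length had a median of 0.00 and 49.7% negative. Across the 40 genes, Pearson's r between log2 length and log2 fold change was -0.61, and across all 12756 genes with a length it was -0.30. These describe genes that share 4 libraries and are not independent points.

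**Figure D2:**
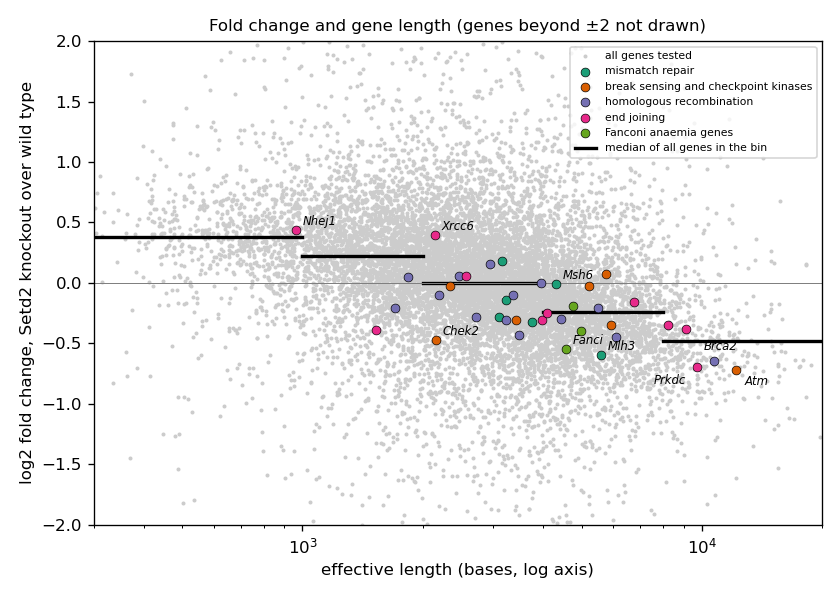
Log2 fold change (Setd2 knockout over wild type) against effective length in bases on a log axis, with all genes tested in grey, the 40 repair genes coloured by role and black lines at the median of all genes in 5 length bins. The lines step down from 0.38 under 1 kb to -0.48 over 8 kb, and the 5 longest repair genes lie between -0.35 and -0.72.

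Libraries of one genotype did not share one slope with length. Relative to each gene's mean over the libraries, genes over 8 kb had a median log2 level of 0.08 in knockout 9 and -0.55 in knockout 12, and 0.16 in wild type 1 and 0.36 in wild type 6. The 5 repair genes over 8 kb followed the same order, with medians of 0.03 and -0.66 in knockout 9 and 12, against 0.27 and 0.48 in wild type 1 and 6. Knockout 9 was nearly flat in length, and knockout 12 and wild type 6 were the 2 extremes. Between knockout 9 and wild type 1, the 2 libraries with the flattest slopes, the median log2 ratio of the 40 repair genes was -0.20 and that of all genes 0.00. For the wider list of repair genes described at the end of these results it was -0.14. Within a genotype, the median ratio of the 40 was -0.14 for knockout 12 over knockout 9 and -0.07 for wild type 6 over wild type 1. Each is a ratio of single libraries.

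**Figure D3:**
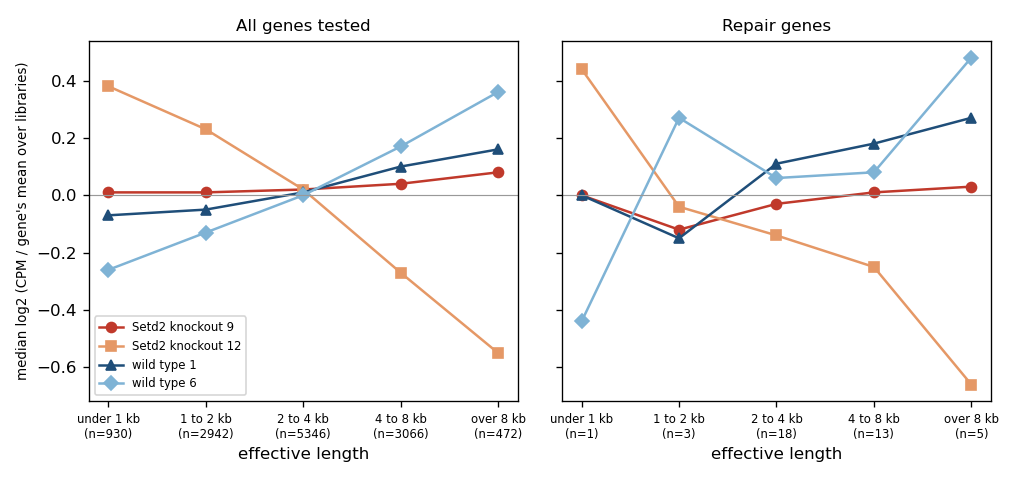
Median log2 CPM relative to each gene's mean over libraries, in 5 bins of effective length, for all genes tested (left) and the 40 repair genes (right), one line per library. Knockout 12 slopes from 0.38 under 1 kb to -0.55 over 8 kb in all genes, wild type 6 runs the other way and knockout 9 stays within 0.08 of 0; the repair gene bins under 2 kb hold 1 and 3 genes.

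With a smooth length trend removed from each library, the shift of the repair genes shrank. The median of the 40 was then -0.10, with 25 negative (62.5% against 50.2% of all genes), and -0.09 when a trend on GC content was removed as well. The knockout pair lay wholly under the wild type pair for 16 of the 40 genes, against 22.9% of all genes, and wholly over it for 4, against 24.0%. In this fit edgeR called 0 of the 40 genes, and 1 was lower at an unadjusted p under 0.05, against 5.17% of all genes, and 0 higher, against 5.82%. That gene was the checkpoint kinase gene Chek2 (-0.57, SE 0.19, edgeR adjusted p 0.409), which at an effective length of 2163 bases is shorter than most genes of the list. By group, the median was -0.15 for mismatch repair, -0.10 for break sensing, -0.15 for homologous recombination, 0.02 for end joining and -0.19 for the Fanconi genes. With no trend removed, the SD between replicates of a group's median log2 level ran from 0.0574 (mismatch repair) to 0.155 (Fanconi genes). Differences between groups were not tested.

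**Figure D4:**
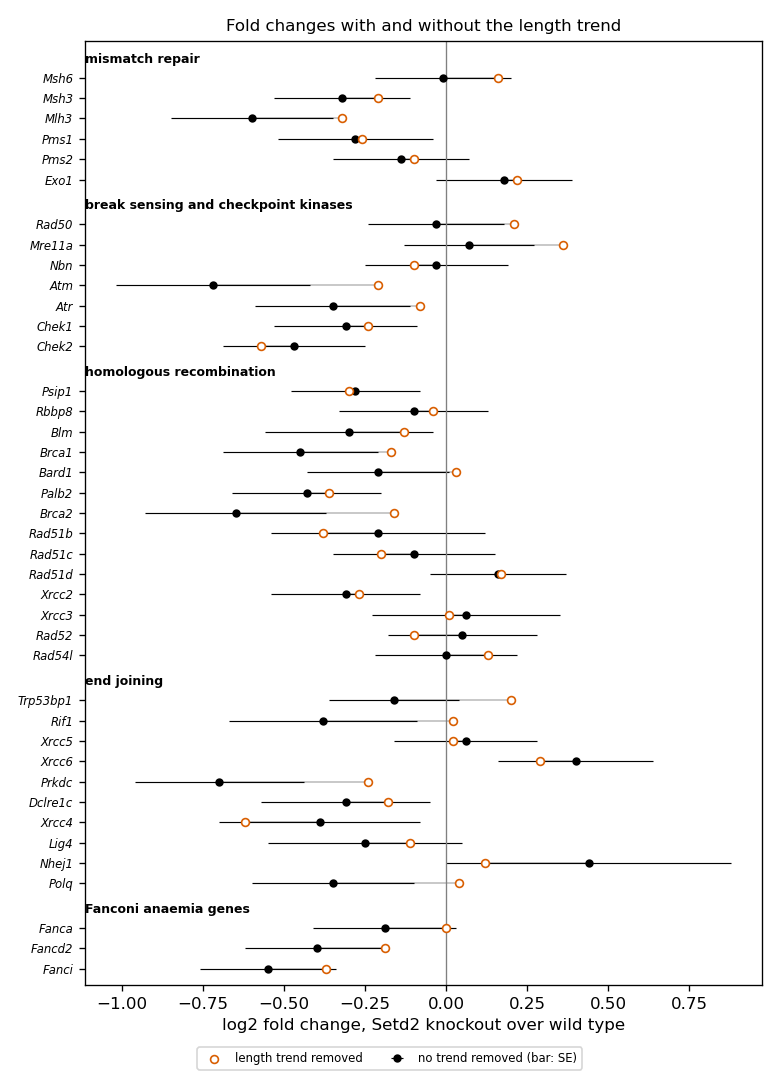
Log2 fold change of each repair gene (Setd2 knockout over wild type) with no trend removed (filled, bar: SE) and with the length trend of each library removed (open). The 5 genes over 8 kb lie nearer 0 with the trend removed (Atm at -0.21, against -0.72 with no trend removed), Chek2 lies at -0.57, and some genes of 4 to 8 kb lie further from 0 on the positive side (Mre11a at 0.36, against 0.07).

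Among the mismatch repair genes, 5 of 6 had a negative log2 fold change (83.3%, against 50.2% of all genes) and the median was -0.21. The knockout pair lay wholly under the wild type pair for 4 of the 6, against 24.3% of all genes, and above for 1, against 25.4%. By length-scaled level the most abundant was Msh6, which encodes the MutS subunit for single-base mismatches, at a mean of 33.8 FPKM in knockout and 35.9 FPKM in wild type cells. Msh3, the alternative subunit for larger loops, had 7.37 FPKM in knockout and 9.43 FPKM in wild type cells. Exo1 had 17.2 FPKM in knockout and 15.7 FPKM in wild type cells. Of the MutL subunit genes, Pms2 had 12.1 FPKM in knockout and 14.5 FPKM in wild type cells. Pms1 had 4.16 and 5.38 FPKM, and Mlh3 2.46 and 3.96 FPKM.

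Msh6 (gene 17688, chromosome 17, 87975050 to 87990892) was measured at 151.4 and 148.1 CPM in knockout libraries, against 158.6 and 142.4 CPM in wild type libraries. The groups overlapped, and the log2 fold change of -0.01 (SE 0.21) had a 95% interval from -0.49 to 0.47. Mlh3 (gene 217716, chromosome 12, 85234466 to 85270647), a MutL subunit gene that also acts in meiotic crossovers, stood at 13.7 and 14.6 CPM in knockout libraries, against 19.0 and 24.0 CPM in wild type libraries. Both knockout libraries were lower (log2 fold change -0.60, SE 0.25, p 0.0415, edgeR adjusted p 0.413), and with the length trend removed the difference was -0.32 (SE 0.23). Msh3 had 30.3 and 25.8 CPM in knockout libraries, against 35.8 and 34.2 CPM in wild type libraries (-0.32, SE 0.21, edgeR adjusted p 0.513). Pms1, a MutL partner with a minor part in repair, had 13.4 and 13.2 CPM in knockout libraries, against 16.6 and 15.8 CPM in wild type libraries (-0.28, SE 0.24, edgeR adjusted p 0.60). Both genes were lower in both knockout libraries by less than 2 SE. Pms2, the main cutting subunit, had 42.3 and 39.3 CPM in knockout libraries, against 45.9 and 44.2 CPM in wild type libraries (-0.14, SE 0.21). Exo1, the exonuclease that removes the mismatched strand and also resects breaks, was the 1 member of the group with a positive value, at 53.1 and 57.6 CPM in knockout libraries, against 51.6 and 46.1 CPM in wild type libraries (0.18, SE 0.21, edgeR adjusted p 0.699). Its libraries did not overlap between genotypes, and the 95% interval ran from -0.30 to 0.66.

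Of the break sensing and checkpoint genes, 6 of 7 were negative in log2 fold change (85.7%, against 50.2% of all genes) and the median was -0.31. It was -0.13 without knockout replicate 12 and -0.49 without knockout replicate 9. The 3 genes of the MRE11 complex, which holds broken ends together, stood nearest to wild type in this group. Rad50 stood at 127.6 and 114.3 CPM in knockout libraries, against 132.8 and 113.5 CPM in wild type libraries (-0.03, SE 0.21). Mre11a, the nuclease, stood at 77.2 and 80.5 CPM against 74.1 and 76.1 CPM in wild type (0.07, SE 0.20), and Nbn, the subunit that brings in ATM, at 28.8 and 29.9 CPM against 32.7 and 27.1 CPM in wild type (-0.03, SE 0.22). Their 95% intervals together spanned -0.53 to 0.54. Per length, Rad50 was the most abundant of the 3, at a mean of 22.6 FPKM in knockout and 24.2 FPKM in wild type cells.

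The kinase genes stood lower in both knockout libraries than in both wild type libraries, which held for 24.3% of all genes. Atm (gene 11920, chromosome 9, 53437122 to 53536828), the kinase that double-strand breaks activate, stood at 77.5 and 43.6 CPM in knockout libraries, against 91.6 and 108.1 CPM in wild type libraries. Its log2 fold change of -0.72 (SE 0.30, p 0.042, edgeR adjusted p 0.413) had the largest size of the 40, and Atm was also the longest of them at 12200 bases. Knockout 12 was far below knockout 9 for this gene, and the log2 fold change was -0.37 without knockout library 12 and -1.21 without knockout library 9. With the length trend removed it was -0.21 (SE 0.15). Atr, the kinase of stalled replication forks and single-stranded DNA, stood at 48.3 and 34.7 CPM in knockout libraries, against 56.6 and 49.3 CPM in wild type libraries (-0.35, SE 0.24, edgeR adjusted p 0.522). With the length trend removed Atr was at -0.08 and its groups overlapped. Chek1, the kinase that ATR activates, stood at 51.9 and 40.6 CPM in knockout libraries, against 60.3 and 54.3 CPM in wild type libraries (-0.31, SE 0.22, edgeR adjusted p 0.538). Chek2 (gene 50883, chromosome 5, 110839800 to 110874140), the kinase that ATM activates, stood at 21.3 and 20.9 CPM in knockout libraries, against 26.9 and 31.4 CPM in wild type libraries (-0.47, SE 0.22, p 0.0652, edgeR adjusted p 0.423). The 2 knockout libraries of Chek2 nearly coincided and lay below both wild type libraries, and any single library left out gave a log2 fold change between -0.56 and -0.35.

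Homologous recombination was the largest group, with 10 of 14 genes negative (71.4%, against 50.2% of all genes) and a median of -0.21. It was -0.34 without knockout replicate 9. The knockout pair lay wholly under the wild type pair for 6 of the 14 genes, against 24.3% of all genes. It lay above for 1, against 25.4%, and overlapped for 7. Psip1 (gene 101739, chromosome 4, 83455680 to 83486463), the chromatin reader named above, was the most abundant of all 40 genes at a mean of 77.7 FPKM in knockout and 102.0 FPKM in wild type cells. In CPM it stood at 230.7 and 210.3 in knockout libraries, against 266.0 and 267.6 in wild type libraries. Both knockout libraries were lower, with a log2 fold change of -0.28 (SE 0.20, edgeR adjusted p 0.546) that stayed at -0.30 (SE 0.16) with the length trend removed. Rbbp8, the resection factor, stood at 90.0 and 68.0 CPM in knockout libraries, against 78.1 and 91.2 CPM in wild type libraries, and the groups overlapped (-0.10, SE 0.23). Blm, the helicase that extends resection and dissolves joint molecules, stood at 86.6 and 64.3 CPM in knockout libraries, against 108.2 and 77.2 CPM in wild type libraries (-0.30, SE 0.26).

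The genes of the BRCA complexes, which act on resected DNA, were each lower in both knockout libraries, which held for 24.3% of all genes. Brca1 (gene 12189, chromosome 11, 101488761 to 101551955), a ubiquitin ligase subunit that favours resection, stood at 91.7 and 63.3 CPM in knockout libraries, against 109.5 and 102.4 CPM in wild type libraries (-0.45, SE 0.24, edgeR adjusted p 0.451). Its partner gene Bard1 stood at 59.2 and 46.1 CPM in knockout libraries, against 62.6 and 59.5 CPM in wild type libraries (-0.21, SE 0.22). Palb2, which bridges BRCA1 and BRCA2, stood at 22.5 and 18.4 CPM in knockout libraries, against 29.7 and 25.5 CPM in wild type libraries (-0.43, SE 0.23, edgeR adjusted p 0.448). Brca2 (gene 12190, chromosome 5, 150522297 to 150570147), which acts in strand exchange, stood at 53.8 and 33.6 CPM in knockout libraries, against 59.6 and 77.6 CPM in wild type libraries (-0.65, SE 0.28, p 0.0507, edgeR adjusted p 0.417). Without knockout library 12 the log2 fold change was -0.21 for Brca1 and -0.35 for Brca2, and without knockout library 9 it was -0.75 for Brca1 and -1.04 for Brca2. With the length trend removed Brca1 was at -0.17, Bard1 at 0.03, Palb2 at -0.36 and Brca2 at -0.16, and the groups then overlapped for Bard1. The trend removed is set by length alone, so by construction it moves Brca2, of 10699 bases, more than Palb2, of 3487 bases.

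The genes Rad51b, Rad51c, Rad51d and Xrcc2, whose proteins form a complex in strand exchange, had log2 fold changes between -0.31 and 0.16. Rad51b stood at 7.48 and 7.85 CPM in knockout libraries, against 7.07 and 10.6 CPM in wild type libraries (-0.21, SE 0.33), and Rad51c at 13.5 and 15.3 CPM against 15.9 and 15.0 CPM in wild type (-0.10, SE 0.25). Rad51d was the 1 gene of the group whose knockout pair lay wholly over the wild type pair, at a mean of 42.6 CPM in knockout and 38.1 CPM in wild type cells (0.16, SE 0.21, edgeR adjusted p 0.735). Xrcc2, its direct partner, stood at 17.2 and 15.4 CPM in knockout libraries, against 19.4 and 21.1 CPM in wild type libraries (-0.31, SE 0.23, edgeR adjusted p 0.548). The pair thus lay on opposite sides of the wild type libraries, each by less than 2 SE, and the difference between them was not tested. Xrcc3 (0.06, SE 0.29), Rad52, a strand annealing factor (0.05, SE 0.23), and Rad54l, the motor protein of strand invasion (0.00, SE 0.22), overlapped between genotypes. Rad54l stood at 80.5 and 77.4 CPM in knockout libraries, between the 89.4 and 68.4 CPM of the wild type libraries.

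End joining genes were the most varied, with 7 of 10 negative (against 50.2% of all genes), a median of -0.28 and a range from -0.70 to 0.44. The median was -0.10 when knockout library 12 was left out and -0.18 when wild type library 1 was, and with the length trend removed it was 0.02. The 3 subunits of DNA-dependent protein kinase, which caps a broken end, had log2 fold changes of both signs. Xrcc6, encoding Ku70, was the member with the largest positive difference among genes over 1 kb, at 57.8 and 76.1 CPM in knockout libraries, against 56.9 and 44.9 CPM in wild type libraries (0.40, SE 0.24, edgeR adjusted p 0.484). Xrcc5, encoding Ku80, which forms an obligate dimer with Ku70, stood at 40.7 and 43.9 CPM in knockout libraries, against 44.3 and 36.7 CPM in wild type libraries (0.06, SE 0.22). Prkdc (gene 19090, chromosome 16, 15637444 to 15842239), the catalytic subunit, stood at 52.6 and 35.0 CPM in knockout libraries, against 65.2 and 77.2 CPM in wild type libraries. Both knockout libraries were lower (-0.70, SE 0.26, p 0.0273, edgeR adjusted p 0.413), and this was the smallest p of the 40. The log2 fold change of Prkdc was -0.44 without knockout library 12 and -1.03 without knockout library 9. The lengths of the 3 genes are 2149, 2569 and 9735 bases, and with the length trend removed the differences were 0.29 for Xrcc6, 0.02 for Xrcc5 and -0.24 (SE 0.15) for Prkdc. Per length, Xrcc6 was at a mean of 30.6 FPKM in knockout and 23.8 FPKM in wild type cells, Xrcc5 at 16.0 and 16.2 FPKM, and Prkdc at 4.71 and 7.20 FPKM.

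Genes that steer the choice of route came next. Trp53bp1, whose protein shields ends from resection, stood at 57.2 and 57.8 CPM in knockout libraries, against 63.1 and 65.2 CPM in wild type libraries (-0.16, SE 0.20), and at 0.20 with the length trend removed. Rif1, its effector, stood at 128.6 and 76.6 CPM in knockout libraries, against 147.3 and 119.8 CPM in wild type libraries (-0.38, SE 0.29, edgeR adjusted p 0.55), and at 0.02 with the length trend removed. Polq, the polymerase of the microhomology route, stood at 48.7 and 34.1 CPM in knockout libraries, against 58.0 and 47.6 CPM in wild type libraries (-0.35, SE 0.25, edgeR adjusted p 0.535), and at 0.04 with the length trend removed. Knockout 12 was the lowest library for Rif1 and Polq, and the groups overlapped for both.

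The ligation genes had the lowest CPM of the end joining group. Lig4, the ligase of end joining, was the least abundant of the 40 at a mean of 1.75 FPKM in knockout and 2.21 FPKM in wild type cells, and stood at 7.77 and 7.02 CPM in knockout libraries, against 9.36 and 8.24 CPM in wild type libraries (-0.25, SE 0.30). Xrcc4, its partner, stood at 7.48 and 11.8 CPM in knockout libraries, against 12.2 and 13.2 CPM in wild type libraries (-0.39, SE 0.31, edgeR adjusted p 0.57). Xrcc4 is a short transcript of 1526 bases, and its difference was -0.62 (SE 0.26, p 0.0535, edgeR adjusted p 0.455) with the length trend removed, the largest of the 40 in that fit. Knockout 9, not knockout 12, was the low library for Xrcc4, and the log2 fold change with one library left out lay between -0.76 and -0.11. Nhej1, encoding the accessory factor XLF, had 65 and 99 counts in the knockout libraries and 74 and 55 in the wild type libraries, and its log2 fold change of 0.44 had an SE of the same size (0.44). Dclre1c, encoding the Artemis nuclease that opens hairpins in receptor gene assembly, stood at 47.4 and 33.7 CPM in knockout libraries, against 43.1 and 57.2 CPM in wild type libraries (-0.31, SE 0.26).

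Against 50.2% of all genes, all 3 Fanconi anaemia genes, which act where a crosslink blocks replication, had negative values. Their median was -0.40, and -0.25 when knockout library 12 was left out. Fanci (gene 208836, chromosome 7, 79392312 to 79450266) was measured at 54.5 and 47.0 CPM in knockout libraries, against 69.4 and 79.5 CPM in wild type libraries (-0.55, SE 0.21, p 0.0334, edgeR adjusted p 0.413). Fancd2, whose protein is clamped on DNA as a dimer with FANCI, stood at 60.1 and 48.5 CPM in knockout libraries, against 72.1 and 71.1 CPM in wild type libraries (-0.40, SE 0.22, edgeR adjusted p 0.451). Both partners lay lower in both knockout libraries, which held for 24.3% of all genes. With the length trend removed Fanci was at -0.37 (SE 0.16) and Fancd2 at -0.19 (SE 0.15). Fanca, a scaffold subunit of the ligase that modifies the pair, stood at 59.8 and 49.9 CPM in knockout libraries, against 68.4 and 57.2 CPM in wild type libraries. Its groups overlapped (-0.19, SE 0.22), and it was at 0.00 with the length trend removed.

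**Figure D5:**
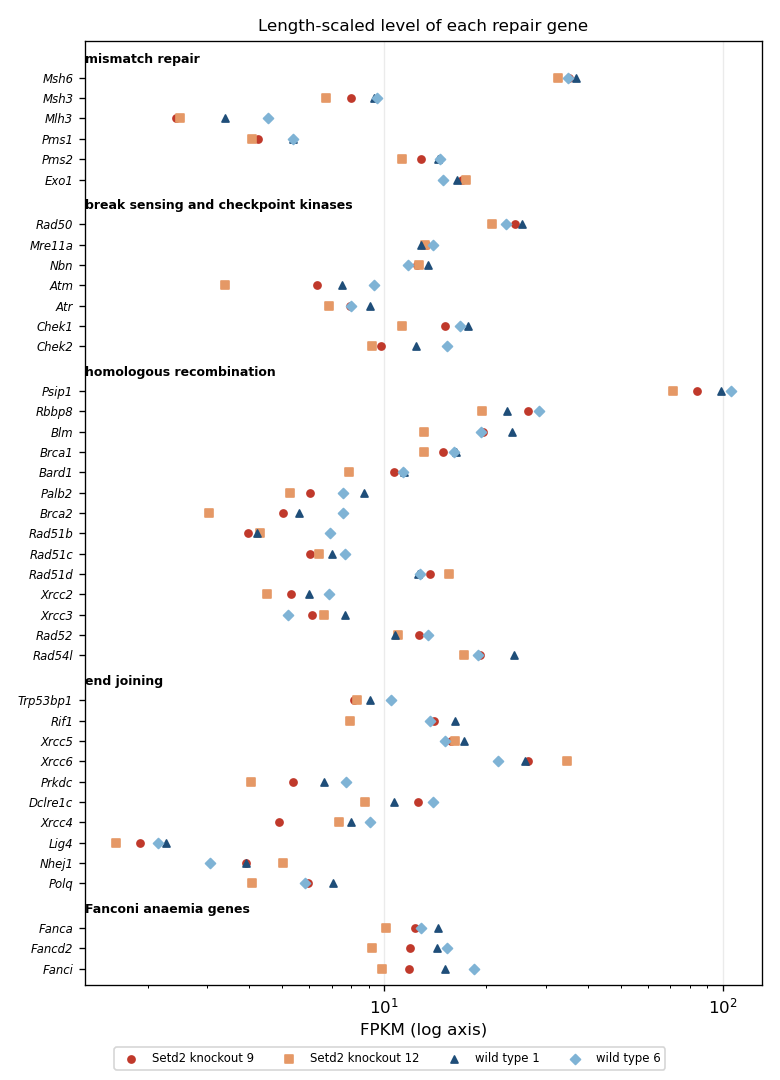
Length-scaled level (FPKM, log axis) of each repair gene in each library, grouped by role (circles and squares, Setd2 knockout; triangles and diamonds, wild type). Psip1 is highest, at a mean of 77.7 FPKM in knockout and 102.0 FPKM in wild type cells, and Lig4 lowest, at 1.75 and 2.21 FPKM.

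A wider list of 73 repair genes outside the 40 was read in the same fit, of which 68 were tested. edgeR and DESeq2 each called 0 of them, and at an unadjusted edgeR p under 0.05 there were 2 higher and 1 lower, against 6.23% and 5.73% of all genes. Their median log2 fold change was -0.05 with 39 negative (57.4%, against 50.2% of all genes). Their median effective length was 2628 bases, shorter than the 3864 of the 40 and the 2815 of all genes. With the length trend removed the median of the 68 was -0.07 with 45 negative (66.2%, against 50.2% of all genes). In that fit the 40 had a median of -0.10 with 62.5% negative. Rpa2, a subunit of the single-strand binding complex RPA, stood at 100.7 and 121.0 CPM in knockout libraries, against 72.6 and 58.1 CPM in wild type libraries (0.76, SE 0.23, p 0.0106, edgeR adjusted p 0.386). Sfr1, an accessory factor of strand exchange, stood at 157.4 and 191.8 CPM in knockout libraries, against 130.0 and 88.6 CPM in wild type libraries (0.68, SE 0.26, p 0.0313, edgeR adjusted p 0.413). Wrn, a RecQ helicase like Blm, stood at 55.1 and 28.4 CPM in knockout libraries, against 67.1 and 78.2 CPM in wild type libraries (-0.80, SE 0.32, p 0.0385, edgeR adjusted p 0.413). These 3 genes were picked by an edgeR p under 0.05, so it is no further result that their groups did not overlap. With the length trend removed the values were 0.60 for Rpa2, 0.48 for Sfr1 and -0.53 for Wrn.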

How the data were processed

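RNA-seq of 4 libraries was analysed from the authors' table of 18560 genes. The deposited expected counts, which RSEM estimates and which need not be whole, come from Bowtie2 and RSEM on GRCm38.p6 and mm10, per the submitters' processing notes, and no settings are stated there. The deposited expression value was taken as FPKM made by the authors: the header names no unit, but over 3804 single-transcript genes its implied length divided by the annotated one had a median of 0.989. The 4 columns of group means were not used. IDs were matched to the RefSeq table of GRCm38.p6 (18424, 99.3%).

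Counts were rounded, filtered with filterByExpr (minimum count 10, 12816 genes left) and scaled by TMM. The genotypes were tested by quasi-likelihood in edgeR 4.0.16 (robust, R 4.3.3), two-sided, Benjamini-Hochberg adjusted over all genes, threshold 0.05. The SE comes from the F statistic, and 95% intervals use the fit's degrees of freedom. DESeq2 1.42.0 and limma-voom (limma 3.58.1) were alternatives, as were other scalings and filters, and each library left out. Length and GC trends were smoothed (loess, span 0.5) per library and entered as offsets, and 60 genes without a length kept no trend offset; GC content came from the longest GENCODE M21 protein-coding transcript. The fits were tested on simulated data. Members and lists were chosen with earlier results of these data known. The rule for values in every library took Setd2, the 4 members of smallest p in each group, Msh6, Psip1 and the highest and lowest FPKM; values of other members were added after they were seen. Of the wider list, genes with p under 0.05 were named, at most 6.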

Additional observations from a re-analysis of the deposited data

How the results depend on the processing

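No repair gene passed an adjusted p of 0.05 under any of 15 other settings, of which 1 (length and GC trends removed together) was chosen after seeing the data; the smallest adjusted p lay between 0.19 (knockout library 9 left out) and 1 (wild type library 6 left out). Genes called over all genes were 1 higher and 0 lower, but 48 and 33 with no filter on low counts and 88 and 97 in DESeq2, and from 0 to 113 higher and 0 to 81 lower with one library left out. The count of negative repair genes ran from 25 to 36. The median of the 40 was -0.10 with the length trend removed, -0.09 with length and GC trends removed, and from -0.34 to -0.13 with one library left out. For mismatch repair it was -0.29 with library size alone, -0.15, -0.12 and -0.13 with the length, the GC and both trends removed, and from -0.26 to -0.15 with one library left out. For break sensing it was -0.10, -0.16 and -0.05 with the same 3 trends removed, and from -0.49 to -0.13 with one library left out. The homologous recombination median ran from -0.34 to -0.15 with one library left out. For end joining it was -0.35 with library size alone, 0.02 with the length trend removed, -0.13 with the GC trend removed, 0.06 with both removed, and from -0.25 to -0.10 with one library left out. For the Fanconi genes it was -0.19 with the length trend and -0.17 with both trends removed, and from -0.57 to -0.25 with one library left out. The cause of these moves was not tested.

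Some genes changed sign. With the length trend removed these were Msh6 (0.16), Rad50 (0.21), Bard1 (0.03), Rad52 (-0.10), Trp53bp1 (0.20), Rif1 (0.02) and Polq (0.04). With the GC trend removed they were Msh6 (0.01), Rad50 (0.04), Nbn (0.06), Rbbp8 (0.05) and Xrcc3 (-0.03). With both removed they were Msh6 (0.15), Rad50 (0.24), Rbbp8 (0.04), Bard1 (0.05), Xrcc3 (-0.03), Rad52 (-0.11), Trp53bp1 (0.20), Rif1 (0.11) and Polq (0.06). With library size alone Mre11a, Xrcc3 and Xrcc5 were at -0.01 and Rad52 at -0.03; that scaling put the median of all genes at -0.08. With one library left out, log2 fold changes ran from -0.09 to 0.08 for Msh6, -0.14 to 0.10 for Rad50, -0.16 to 0.13 for Nbn, -0.33 to 0.09 for Rbbp8, -0.46 to 0.11 for Rad51b, -0.22 to 0.43 for Xrcc3, -0.06 to 0.17 for Rad52 and -0.07 to 0.22 for Xrcc5. No paired analysis was possible because the groups share no replicate numbers. The SE was 0.44 for Nhej1, 0.33 for Rad51b, 0.31 for Xrcc4 and 0.30 for Lig4, the 4 members of lowest CPM, and also 0.30 for Atm.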
